A study of Homo sapiens with 12 samples.

Results

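The question addressed here is whether K562 cells respond to tumour necrosis factor alpha (TNF) in the same way after a long non-coding RNA (lncRNA) has been targeted as they do after a mock transfection. K562 is an established cell line from chronic myeloid leukaemia. RNA was sequenced in single reads of 50 bases from 4 groups, each with 3 biological replicates by their labels. Cells of the control group received the mock transfection, a control siRNA with a control GapmeR (SiCt and GapCt), and no TNF. The TNF group received the same mock transfection and then TNF at 20 ng/mL for 6 hours. The SG group received Si623 and Gap01, read here as an siRNA and a GapmeR against the lncRNA, and no TNF. The TNFSG group received Si623 and Gap01 and then the same TNF treatment. All 12 libraries therefore come from transfected cells, and no untransfected group was used. The members described are the loci with a gene name and a mean of at least 5 FPKM (fragments scaled to transcript length and to mapped library size) over the 12 libraries. There were 12704 such loci of 38272 in all, of which 29237 had a name. For each, the TNF response without the targeted transfection (TNF minus control) was subtracted from the response with it (TNFSG minus SG) on the log2(FPKM + 1) scale. This difference of differences is called the interaction. A positive value is a more positive response, and a negative value a less positive one, after the targeted transfection.

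TNF binds its receptors and, through adaptor proteins and the IKK kinases, frees the transcription factor NF-kB from its IkB inhibitors. NF-kB then raises genes for chemokines, cytokines and adhesion proteins, and also genes that shut the pathway down, among them IkB alpha, A20 and the primary transcript of miR-146a. miR-146a is known as a feedback regulator that lowers the adaptors TRAF6 and IRAK1. A GapmeR is an antisense oligonucleotide that leads RNase H to cut its target RNA.

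Among the genes of the 17 lists described below, the locus named MIR146A had the lowest unadjusted p in the interaction, so its mature products are shown, with the seed (bases 2 to 8) in capitals, from RefSeq on GRCh38.p14.
hsa-miR-146a-5p: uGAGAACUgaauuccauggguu
hsa-miR-146a-3p: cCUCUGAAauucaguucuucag
The 5p product lies at chr5:160485372-160485393 and the 3p product at chr5:160485408-160485429, both on the + strand, within the hairpin at chr5:160485352-160485450. On hg38, the build of these values, the annotation places the hairpin inside the lincRNA gene MIR3142HG (chr5:160438594-160487426, + strand), downstream of PTTG1 (chr5:160421822-160428744). The deposited value of the MIR146A locus counts reads of long RNA at that locus, not the mature miRNA. The position of the lncRNA that Si623 and Gap01 target is not given in the sources used here.

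Depth per library was known only in relative terms, from loci whose values step in whole reads, and ranged from 0.863 to 1.321. FPKM sums lay between 925955 and 1083476, and the median member was at 17.8 to 19.4 FPKM in every library. Of 10 marker genes of K562, 7 were at a mean of 5 FPKM or more, and the summed level of those in the table was 720 to 1781 FPKM per library. Of the marker lists of other cell types, the summed fibroblast list reached its highest values in libraries with TNF, at 23.9 to 56.3 FPKM in control, 55.1 to 1178 in TNF, 21.3 to 45.3 in SG and 65.2 to 444 in TNFSG. Of its 5 genes 3 were in the table, the control and TNF ranges overlapped, no member passed a test of TNF, and its part in the results below was not tested. The epithelial list summed to 164 to 240 FPKM per library and the lymphoid list to 16.0 to 50.3. The monocyte or granulocyte list summed to 10.0 to 45.3 FPKM and the endothelial list to 15.9 to 57.2. In such bulk RNA, fewer cells of a kind and less RNA per cell cannot be told apart. P-values measure the spread between these replicates only.

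Most members had an interaction near 0, and very few loci passed the adjusted test of a difference. Most members also had no called TNF response: averaged over both transfections, 568 of 12621 rose and 440 fell. The interaction was tested for 12621 members, fitted with limma over all 32866 loci that passed the filter on low values, and 83 members did not pass it. At an adjusted p under 0.05, 3 members differed (0.0238% of the members tested), 1 higher and 2 lower. No other locus of the 32866 did, so the share over all loci was 0.00913%. At an unadjusted p under 0.05 there were 139 members higher and 195 lower, 2.65% of those tested, against 3.75% of all loci. The median interaction over the members was 0.00, and the quartiles were -0.13 and 0.10. How far the data limit a difference can be read from the 95% intervals. For 8607 members (68.2%) the interval lay wholly between -1 and 1, which is a difference under 2-fold on this scale, and for 5196 (41.2%) between -0.5 and 0.5. For the others the interval reaches past that limit, so a larger difference is not excluded.

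**Figure D1:**
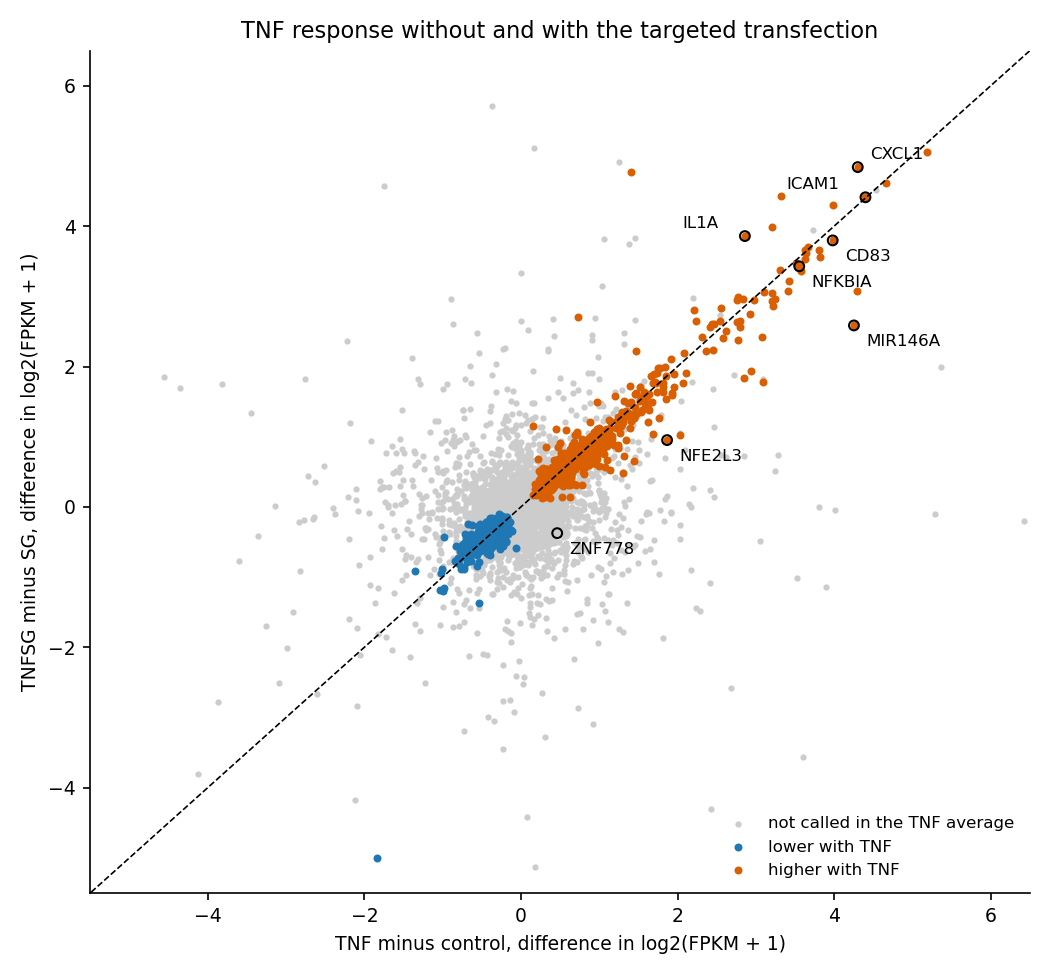
Each point is a tested member that was not found to average under 10 reads, with TNF minus control on the x axis and TNFSG minus SG on the y axis, both as differences in log2(FPKM + 1), and the dashed line marks equal responses. Of 11090 such members 2 lie outside the axes. Most members called higher (orange) or lower (blue) in the TNF average lie near the line, 9 of the 556 higher ones are more than 1 from it, and MIR146A lies below it at 4.25 against 2.59.

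The 3 loci that passed were counted from few reads, and each was listed at 0 in all 3 libraries of at least 1 group. SDCBPP3 is a processed pseudogene (chrX:40890647-40891537, - strand). Its FPKM was 2081, 989 and 881 in control, 2038, 760 and 2230 in TNF, 0, 0 and 0 in SG, and 3647, 1665 and 1582 in TNFSG. These values correspond to 9, 4 and 3 reads in control, 9, 3 and 8 in TNF, 0, 0 and 0 in SG and 19, 6 and 6 in TNFSG. The SG libraries were thus below every other library, and the remaining groups overlapped. Its interaction was 10.74 (limma, adjusted p = 0.00124). AC012322.1, a lincRNA gene (chr16:64242608-64343909, - strand), had the opposite gap. It had 4, 1 and 5 reads in control, 3, 3 and 4 in TNF, 4, 2 and 12 in SG and none in the TNFSG libraries. Only TNFSG stood apart, and the interaction was -10.36 (limma, adjusted p = 0.0187). RP4-676J13.2 names 11 loci of the table, and the member among them was listed at 29.4, 42.6 and 118 FPKM in the SG libraries and at 0 in the other 9 libraries. Its interaction was -5.76 (limma, adjusted p = 0.0218).

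The size of these values follows from setting a group of high FPKM against a listed 0, and none is a fold change. A few reads reach such levels at these loci. The calls of AC012322.1 and RP4-676J13.2 were lost in 5 and in 9 of the 12 fits that left out 1 library. AC012322.1 was lost without TNF replicates 1 or 3, SG replicate 1, or TNFSG replicates 2 or 3, with limma adjusted p values of up to 0.0991, and RP4-676J13.2 reached 0.126. SDCBPP3 was called in all 12 of those fits. Its call was lost without the 4 libraries of replicate 2 or those of replicate 3 (limma, adjusted p of up to 0.126). C16orf96, another locus of this kind, was at 0 in the SG libraries only (1 to 10 reads elsewhere) and had an interaction of 8.66 (limma, adjusted p = 0.0920). Counting the members at 0 in exactly 1 whole group and above 0 in the 9 other libraries gave 4 for control, 0 for TNF, 2 for SG and 1 for TNFSG. Over all loci the same counts were 15, 8, 6 and 5. Such loci were therefore present for every group when all loci were counted.

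**Figure D2:**
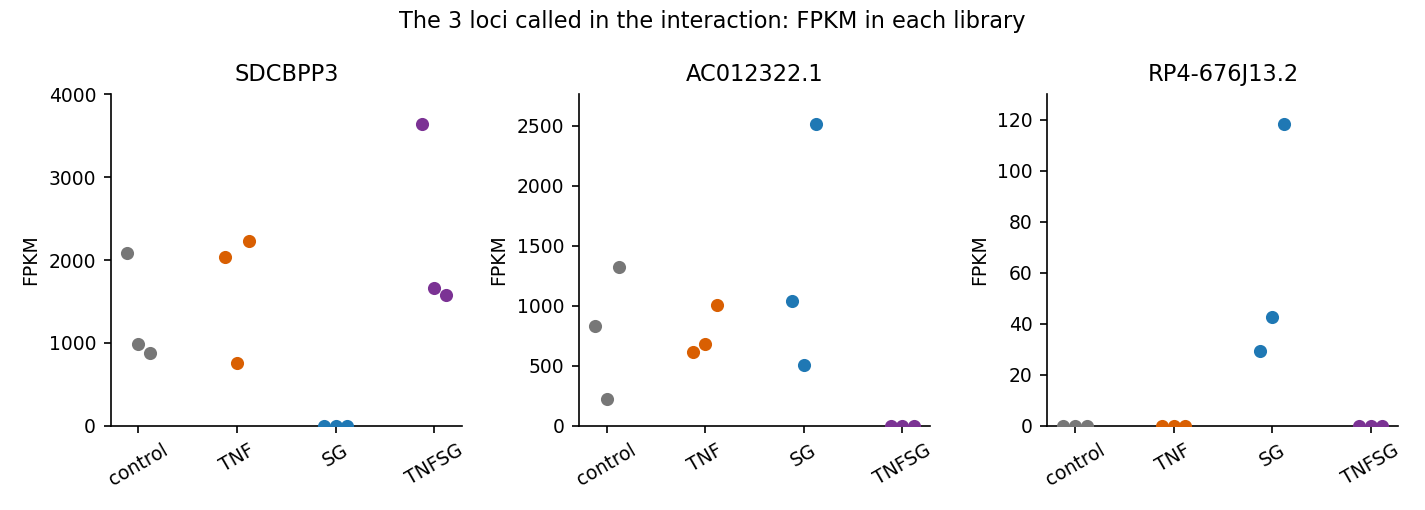
FPKM in each of the 3 libraries of each group for the 3 loci that passed the test of the interaction. SDCBPP3 is at 0 in SG alone, AC012322.1 at 0 in TNFSG alone, and RP4-676J13.2 above 0 in SG alone.

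Among the 12621 members tested, 1531 averaged fewer than 10 recovered reads, and the 3 calls were all among them. Their median standard error of the interaction was 1.62, against 0.186 for the other 11090 members, which had more reads or reads that could not be recovered. Of those 11090 none passed the adjusted threshold in limma, 233 (2.10%) had an unadjusted p under 0.05, and 8604 (77.6%) had an interval between -1 and 1. Listed zeros were not confined to few-read loci. Of 1221 members at 0 in some library, 990 averaged under 10 reads, while 109 were not found to and had a median of at least 5 FPKM. MKI67, the Ki-67 protein of dividing cells, was listed at 0 in control replicate 2 and at 41.5 to 55.7 FPKM in the other 11 libraries. TAB2, an adaptor of the kinase TAK1, was listed at 0 in control replicate 3, TNF replicate 1 and TNFSG replicates 1 and 2, and at 25.9 to 43.5 FPKM in the rest. The interaction of MKI67 was -2.0 with an interval from -5.86 to 1.86, and that of TAB2 was -3.60 with an interval from -9.72 to 2.52. Neither passed, and both rest on libraries listed at 0 for genes that K562 cells use.

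The MIR146A locus is the primary transcript region of miR-146a. Its FPKM was 0.360, 0.569 and 0.159 in control, 28.1, 25.6 and 21.2 in TNF, 0, 0.0566 and 0.0630 in SG, and 7.77, 4.51 and 4.03 in TNFSG. These came from 23, 34 and 8 reads in control, 1834, 1491 and 1125 in TNF, 0, 3 and 4 in SG, and 598, 240 and 226 in TNFSG. The 4 groups did not overlap: SG was lowest, then control, then TNFSG, and TNF was highest. On the log2(FPKM + 1) scale the TNF response was 4.25 after the mock transfection and 2.59 after the targeted one. The interaction was -1.67 (95% interval -2.37 to -0.96, unadjusted p = 0.0004), which did not pass the adjustment over all loci (limma, adjusted p = 0.470). The average TNF effect, 3.42, and the average effect of the targeted transfection, -1.21, both passed (limma, adjusted p = 2.0e-06 and 0.00869). The latter call was lost when all 4 libraries of a replicate number were left out (limma, adjusted p of up to 0.381).

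For this locus the direction of the difference depends on the scale. Per unit of depth, TNF libraries had 67.4 times the reads of control libraries (95% counting interval 52.8 to 87.5), and TNFSG libraries had 137 times the reads of SG libraries (66.2 to 341). As a ratio, the rise with TNF was thus not smaller after the targeted transfection, and the intervals overlapped. They cover counting error only, and the denominators are 65 reads over the control libraries and 7 over the SG libraries. As a difference of mean FPKM, the rise was 24.6 after the mock transfection and 5.40 after the targeted one. Relative to the matched mock group, the mean level was 89.0% lower in SG and 78.2% lower in TNFSG. With a smaller pseudocount of 0.1 the log2 interaction was -0.57. The adjusted p lay between 0.145 and 1.00 over all the alternatives run, so the locus passed in none of them.

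Other members of the region around MIR146A and PTTG1 had intervals that included 0. PTTG1, securin, which restrains the separation of sister chromatids, had mean levels of 192, 204, 182 and 196 FPKM in control, TNF, SG and TNFSG. Its interaction was 0.02 (-0.18 to 0.22). SLU7, a splicing factor, had 0.09 (-0.23 to 0.42), PWWP2A, a chromatin protein, -0.06 (-0.42 to 0.29), and UBLCP1, a phosphatase, 0.07 (-0.18 to 0.32). For these 4 genes the interval lay between -0.5 and 0.5. The name PWWP2A is on 5 loci, and the value is that of its most abundant tested member. FABP6, a bile acid binding protein, was poorly limited at 1.07 (-0.63 to 2.76).

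**Figure D3:**
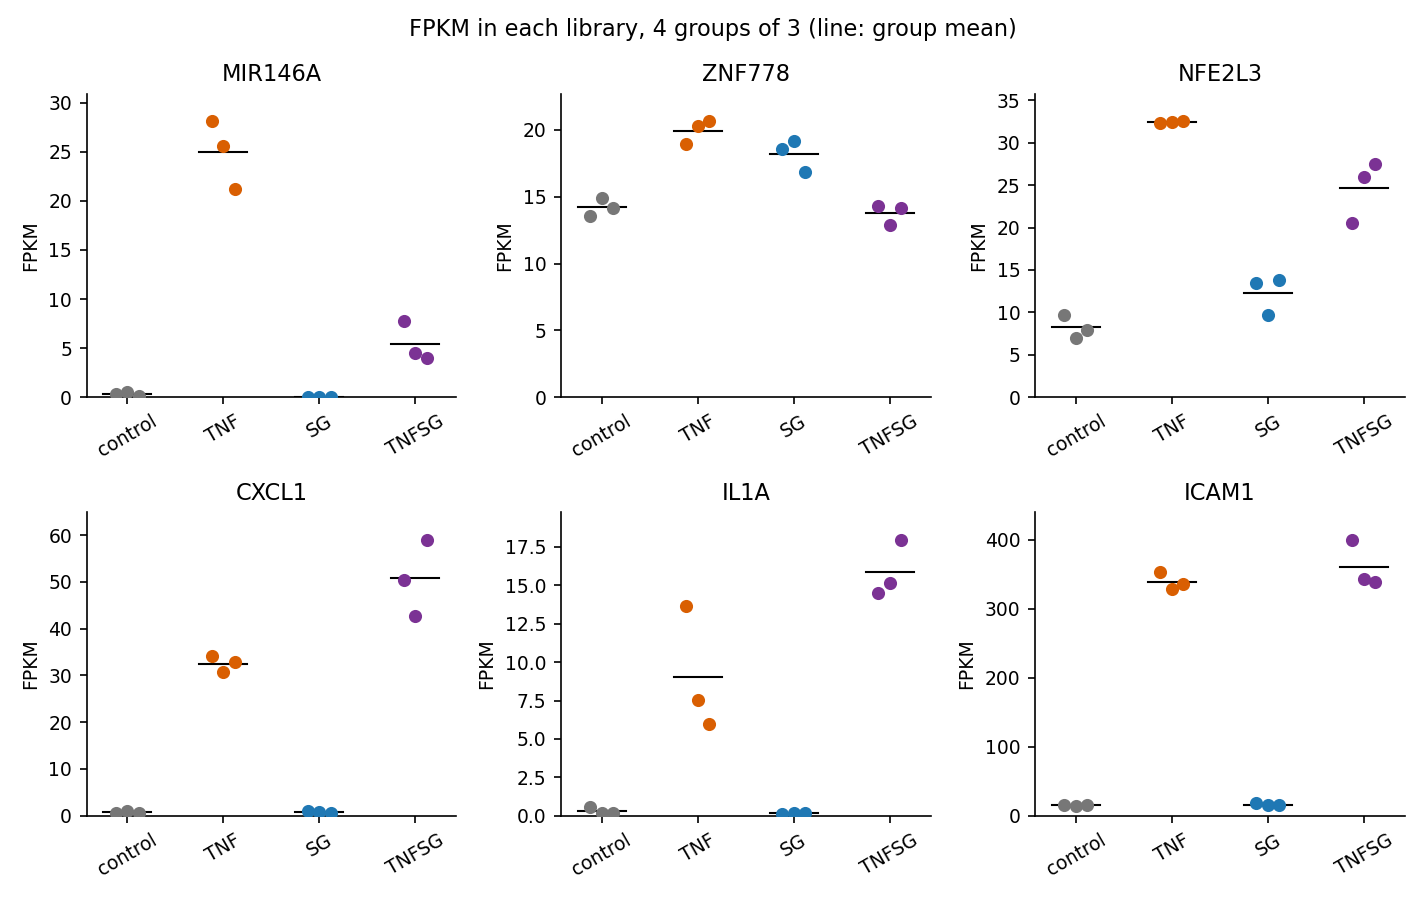
FPKM in each library for 6 members, with a line at each group's mean and a y axis from 0. MIR146A, ZNF778 and NFE2L3 have a less positive TNF response after the targeted transfection, CXCL1 and IL1A a more positive one, and ICAM1 about the same, and none of the 6 passed the adjusted test of the interaction.

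Of the members not found to average under 10 reads, ZNF778 had the lowest p. It encodes a zinc finger protein of the KRAB family (chr16:89217703-89237071, + strand). Its FPKM was 13.5, 14.9 and 14.2 in control, 18.9, 20.3 and 20.7 in TNF, 18.6, 19.2 and 16.8 in SG, and 14.3, 12.9 and 14.2 in TNFSG. TNF and SG were each above control, and TNFSG was back at the control level and overlapped it. The response was 0.46 after the mock and -0.37 after the targeted transfection. The interaction was -0.84 (-1.08 to -0.59, unadjusted p = 2.34e-05), which did not pass (limma, adjusted p = 0.128, and 0.0516 to 0.886 over the alternatives).

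NFE2L3, a transcription factor of the NRF family, was named after its values were seen. It was at 9.69, 7.02 and 7.98 FPKM in control, 32.4, 32.4 and 32.5 in TNF, 13.5, 9.66 and 13.8 in SG, and 20.5, 25.9 and 27.5 in TNFSG. TNF and TNFSG lay above both untreated groups, and every TNFSG library was below every TNF library. Its response was 1.87 against 0.95, with an interaction of -0.92 (-1.42 to -0.41, unadjusted p = 0.00242; limma, adjusted p = 1.00). The member named EDC4, after a scaffold of mRNA decapping, averaged 4.92 reads. This locus had 3, 4 and 2 reads in control, 9, 9 and 11 in TNF, 3, 3 and 4 in SG and 5, 3 and 3 in TNFSG. Only its TNF libraries stood apart, and the interaction was -1.58 (limma, adjusted p = 0.339). LINC01169, a lincRNA whose name is on 21 loci, had an interaction of -2.42 at the member (limma, adjusted p = 0.403).

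In the other direction, 3 coding genes outside the few-read loci are named by their low p. ARHGAP27, a GTPase-activating protein, was at 13.9, 10.4 and 14.5 FPKM in control, 14.6, 10.0 and 7.60 in TNF, 8.01, 7.11 and 8.74 in SG, and 15.6, 19.6 and 14.9 in TNFSG. The TNFSG libraries were above all others, and the interaction was 1.25 (0.57 to 1.93). TMEM184A had 0.78 (0.36 to 1.20) and HACE1, a ubiquitin ligase, 0.72 (0.33 to 1.10). None of the 3 passed (limma, adjusted p = 1.00 for each).

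Genes that TNF moved had nearly the same median response in both transfections. Averaged over both transfections, TNF raised 568 members (4.5% of those tested) and lowered 440 (3.49%). Over the 568 rises, the median response was 0.69 after the mock and 0.68 after the targeted transfection, and the median interaction was -0.03, against 0.00 over all members tested. The interaction was positive for 254 of them and negative for 314. For 487 of the 568 the interval lay between -1 and 1, and for 276 (48.6%) between -0.5 and 0.5. Of the 176 that rose by at least 1 on the log2 scale, the median response was 1.68 against 1.64. For 106 of these 176 the interval lay between -1 and 1, and for only 28 (15.9%) between -0.5 and 0.5. Over the 440 falls, the medians were -0.36 and -0.34, and 430 intervals lay between -1 and 1. The TNF average holds all 12 libraries of the interaction, and the members in these sets were chosen by it.

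Taken 1 transfection at a time, TNF raised 291 members after the mock (2.31%) and 297 after the targeted transfection (2.35%), and lowered 78 (0.618%) and 79 (0.626%). Leaving out 1 control or TNF library other than control replicate 1 took the falls after the mock to 26 (without control replicate 2) to 46 (without TNF replicate 2). Leaving out any 1 SG or TNFSG library took the falls after the targeted transfection to 32 (without SG replicate 3) to 45 (without SG replicate 2), and the rises there fell to 195 without TNFSG replicate 1. There were 247 rises in both. Another 44 were called after the mock only, and of these 40 had the same sign in the other response and 37 an unadjusted p under 0.05 there, which 15.1% of all members tested had in that response. The 50 called after the targeted transfection only included 48 of the same sign in the other response and 40 with an unadjusted p under 0.05 there, which 17.1% of all members tested had. In the test of the difference itself, 0 of the 44 passed in limma (10 at an unadjusted p under 0.05) and 1 of the 50, SDCBPP3. A rise called in 1 response and not in the other was therefore, except for SDCBPP3, no difference that passed.

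The subunits of NF-kB and the IkB proteins rose with TNF. Of 9 members, 9 rose in the TNF average and 8 in each single response, 0 passed in the interaction, and the median interaction was -0.07, with a range from -0.27 to 0.18. NFKBIA, IkB alpha, was at 11.8, 11.4 and 9.44 FPKM in control, 143, 139 and 133 in TNF, 11, 13.7 and 11.4 in SG, and 141, 140 and 135 in TNFSG. Treated and untreated groups did not overlap, and the 2 treated groups did. Its interaction was -0.13 (-0.44 to 0.19). RELB, an NF-kB subunit, rose by 3.81 and 3.66 and had an interaction of -0.15 (-0.80 to 0.51). BCL3, a nuclear IkB protein, had -0.27 (-0.80 to 0.25), and NFKBIZ, another, 0.18 (-0.41 to 0.78). All 9 intervals lay between -1 and 1. Lists were matched by single names, so the locus named AD000864.6 and NFKBID, the latter an IkB protein gene, is not among the 9. It too rose in the TNF average (limma, adjusted p = 0.0327). Its response was 0.16 after the mock and 1.15 after the targeted transfection. The interaction was 1.00 (0.35 to 1.64; limma, unadjusted p = 0.00652), outside the range above, and did not pass the adjustment.

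Inhibitors of the pathway behaved likewise. Of 12 members 7 rose with TNF, and the median interaction was -0.01, with all 12 intervals between -1 and 1. TNFAIP3, the ubiquitin-editing protein A20, was at 2.03, 1.98 and 1.48 FPKM in control, 42.1, 38.3 and 35.8 in TNF, 2.86, 2.51 and 1.59 in SG, and 40.4, 37.4 and 35.8 in TNFSG. The treated libraries stood far above the untreated ones in both arms, and the interaction was -0.25 (-0.73 to 0.23). BIRC2, a ubiquitin ligase of the receptor complex, had 0.22 (-0.35 to 0.79), and TRAF3, an adaptor that restrains NF-kB-inducing kinase, -0.10 (-0.42 to 0.21).

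**Figure D4:**
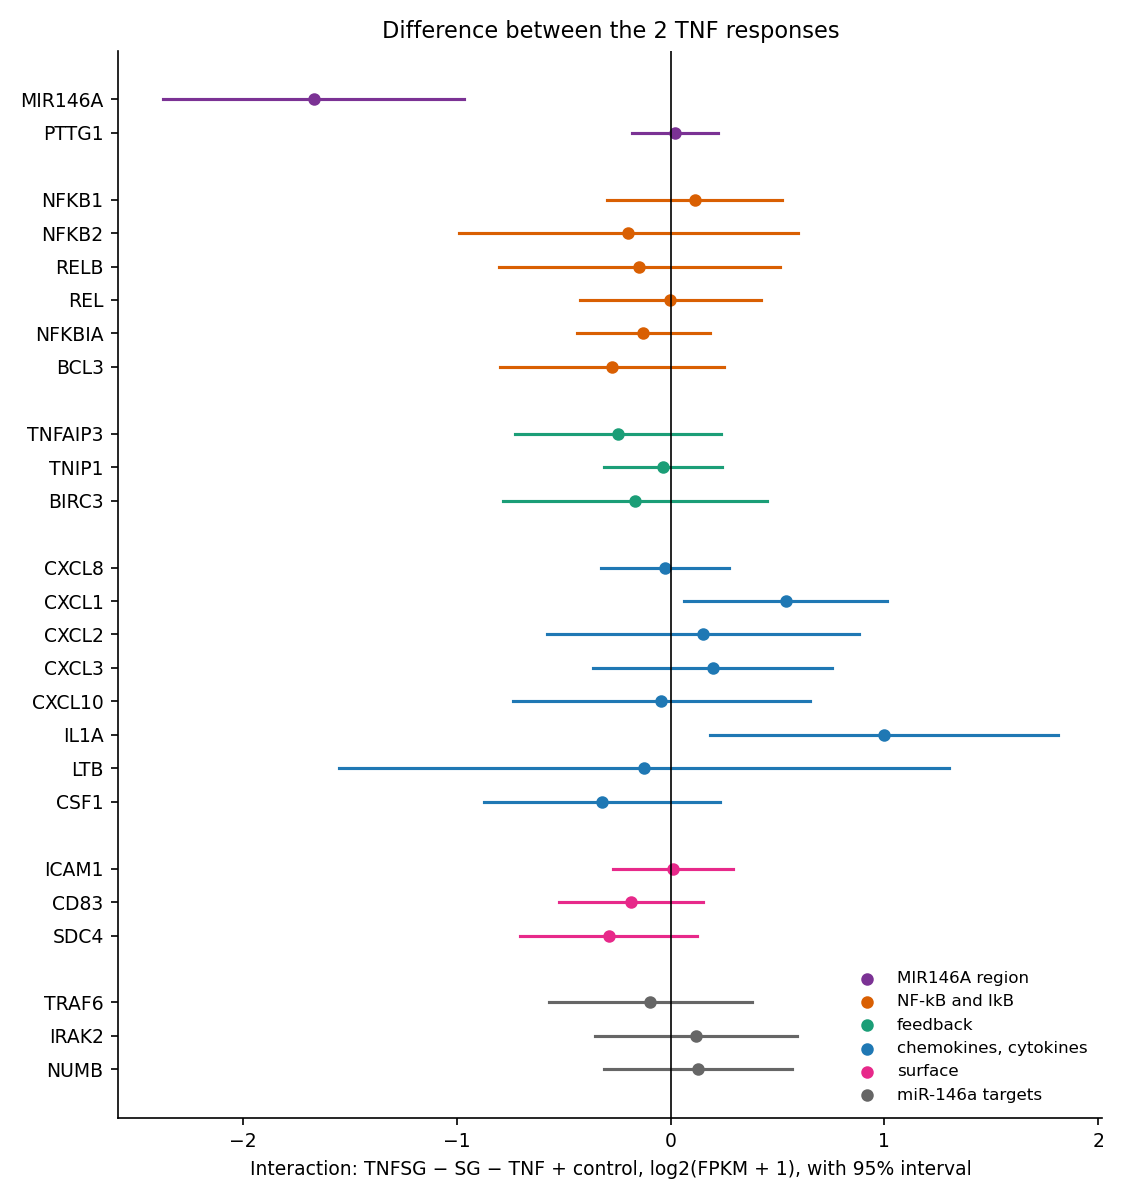
The interaction on the log2(FPKM + 1) scale (point) with its 95% interval (line) for members of 6 gene lists, coloured by list. MIR146A (-1.67), CXCL1 (0.54) and IL1A (1.00) have intervals that leave out 0, and the unadjusted intervals of the other genes drawn include it.

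Chemokines and cytokines held the TNF-raised genes CXCL1 and IL1A, whose values leaned to a larger response after the targeted transfection without passing the test. Of 15 members 14 rose with TNF, the median interaction was -0.02, and CXCL1 and IL1A were the 2 with an unadjusted p under 0.05. CXCL1, a neutrophil chemokine, was at 0.524, 0.923 and 0.666 FPKM in control, 34.1, 30.6 and 32.8 in TNF, 1.08, 0.724 and 0.60 in SG, and 50.5, 42.7 and 59.0 in TNFSG. The untreated groups overlapped, and every TNFSG library was above every TNF library. Its interaction was 0.54 (0.06 to 1.01; limma, adjusted p = 1.00). IL1A, the cytokine interleukin 1 alpha, was at 13.6, 7.53 and 5.95 FPKM in TNF and at 14.5, 15.1 and 18.0 in TNFSG, and under 1 FPKM in the 6 untreated libraries. Here too the treated groups did not overlap, and the interaction was 1.00 (0.19 to 1.81; limma, adjusted p = 1.00). CXCL8, interleukin 8, rose from a mean of 11.2 to 138 FPKM and from 10.2 to 123, with an interaction of -0.03 (-0.33 to 0.27). CXCL10, a chemokine for T cells, had -0.04 (-0.74 to 0.65), and LTB, lymphotoxin beta, the member with the largest TNF rise outside the few-read loci, -0.12 (-1.55 to 1.30). CXCL11 and CSF1 had 0.79 (-0.78 to 2.36) and -0.32 (-0.87 to 0.23). For this list 7 of 15 intervals lay between -1 and 1.

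Among the surface proteins, ICAM1 combined a large rise with a narrow interval. ICAM1, the adhesion protein that leukocytes bind, was at 15.6, 14.5 and 15.2 FPKM in control, 354, 328 and 336 in TNF, 18.0, 15 and 15 in SG, and 400, 344 and 340 in TNFSG. It rose by 4.40 and 4.41, and its interaction was 0.01 (-0.27 to 0.29). CD83, a marker of activated antigen-presenting cells, had -0.19 (-0.52 to 0.15), and SDC4, a heparan sulphate proteoglycan, -0.29 (-0.70 to 0.12). Of the 14 members of this list 7 rose and 1, ICAM2, fell with TNF, and 0 passed in the interaction.

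Receptors, adaptors and kinases upstream of NF-kB mostly did not move with TNF. Of 24 members 4 rose in the TNF average and 0 passed in the interaction, of which the median was -0.09. The interaction was positive for 6 of the 24 and negative for 18. Except for TAB2, described above, the interactions lay between the value of SHARPIN, a subunit of the linear ubiquitin ligase, at -0.26 (-0.54 to 0.02), and that of MAP3K14, NF-kB-inducing kinase, at 0.28 (-0.48 to 1.05). The 8 members on the list of targets known for miR-146a, some of which are on other lists too, had a median interaction of 0.07, 6 of them positive and 2 negative, and all 8 intervals lay between -1 and 1. TRAF6, an adaptor, was at 5.31, 4.42 and 3.52 FPKM in control, 6.83, 5.88 and 5.97 in TNF, 4.54, 4.75 and 3.78 in SG, and 6.18, 6.09 and 4.98 in TNFSG. The TNF and TNFSG libraries overlapped, and the interaction was -0.09 (-0.57 to 0.38). IRAK2, a kinase of interleukin 1 signalling, had 0.12 (-0.35 to 0.59), and NUMB, an inhibitor of Notch, 0.13 (-0.31 to 0.57). A change of protein without a change of RNA was not measured.

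The remaining lists likewise had 0 members past the adjusted threshold in limma. Immediate early factors (18 members, 8 rises and 1 fall with TNF) had a median interaction of -0.03, and none was past an unadjusted p of 0.05. Other genes that TNF is known to raise (20 members, 13 rises) had -0.06, and interferon-stimulated and class I genes (21 members, 12 rises) had -0.01. Apoptosis genes (24 members, 10 rises) had -0.05, and 1 had an unadjusted p under 0.05. That gene was BAD, which promotes cell death, at 16.3, 13.0 and 15.7 FPKM in control, 32.3, 30.1 and 19.9 in TNF, 24.3, 21.1 and 25 in SG, and 24.6, 23.0 and 16.6 in TNFSG. Both TNF and SG lay above control, while TNFSG overlapped SG and TNF, and the interaction was -0.95 (-1.57 to -0.33; limma, adjusted p = 1.00). The name is on 6 loci.

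Lists less tied to TNF had medians as near to 0. The erythroid genes, which K562 expresses, had 37 members with 2 rises and 7 falls and a median of -0.05. UROS, a haem synthesis enzyme, had -0.58 (-1.17 to 0.01), and GATA1, the erythroid transcription factor, -0.10 (-0.31 to 0.11). G2/M and mitosis genes had a median of 0.02 over 25 members, G1/S and DNA replication genes -0.04 over 25, stress response genes -0.06 over 12, and RNA silencing and RNase H genes -0.03 over 17. CCND1, cyclin D1, was the G1/S gene farthest from 0 among those named, at -0.79 (-1.74 to 0.15), with mean levels of 130, 354, 94.9 and 147 FPKM in control, TNF, SG and TNFSG.

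**Figure D5:**
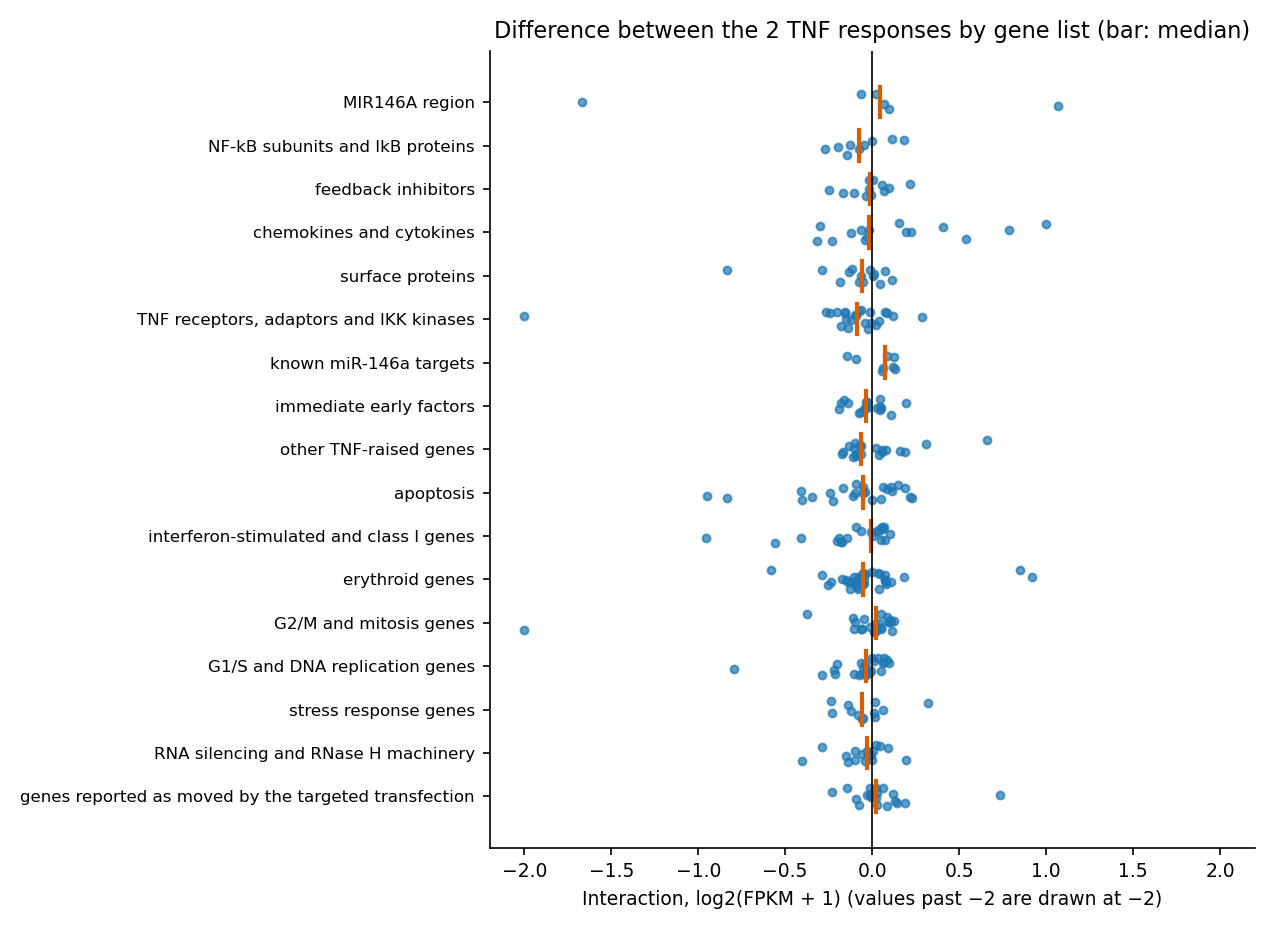
The interaction on the log2(FPKM + 1) scale for every tested member of each of 17 gene lists (points) with the list's median (bar); points have a small vertical scatter for visibility. The medians lie between -0.09 and 0.07, and the points drawn at -2 are TAB2 and MKI67.

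Genes moved by the targeted transfection itself had median interactions near 0. Averaged over both TNF states, 143 members were higher (1.13%) and 161 lower (1.28%). Leaving out any 1 library other than control replicate 1 or TNF replicate 1 lowered at least 1 of these counts by over 1.5 times, to 46 and 71 without control replicate 2 and to 40 and 74 without TNFSG replicate 3. The split depends on scaling, at 90 higher and 248 lower with median-ratio scaling and 59 and 310 with quantile normalization. The median of the average effect over all loci was 0.09, and it was 0.06 and -0.02 under those scalings. The median interaction was -0.01 over the 143, with 62 positive and 81 negative, and 0.04 over the 161, with 105 positive and 56 negative. An unadjusted p under 0.05 was found for 5.59% of the 143 and 3.11% of the 161. A list of genes that an earlier look at these data had given as moved by the targeted transfection, which is no independent evidence, had 4 of 21 higher and 16 lower in the average effect. Its median interaction was 0.02, and 20 of 21 intervals lay between -1 and 1. HEATR1, a ribosome biogenesis factor, had mean levels of 53.3, 41.5, 27.0 and 23.2 FPKM in control, TNF, SG and TNFSG and an interaction of 0.14 (-0.19 to 0.48). TDG, a DNA repair glycosylase, had 0.19 (-0.04 to 0.42), and CRTC1, a CREB coactivator, -0.23 (-0.53 to 0.07).

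The 568 members raised by TNF held 28 with an unadjusted p under 0.05 in the interaction, 17 with a larger response after the targeted transfection and 11 with a smaller one, which is 4.93% against 2.65% of all members tested. Without the few-read loci there were 14 and 8 of 556, which is 3.96% against 2.10%. The few-read loci SDCBPP3 and C16orf96 are among the 28, though their responses after the mock were only 0.31 and 0.12. Outside the few-read loci, the largest of these differences was at the locus that carries the names DYNLL2, a dynein light chain, and RP11-159D12.8. It was at 116, 117 and 17.9 FPKM in control, 294, 124 and 131 in TNF, 12.3, 14.7 and 10.8 in SG, and 816, 473 and 127 in TNFSG. The SG libraries were below all others, TNF and TNFSG overlapped, and the interaction was 3.36 (0.78 to 5.94; limma, adjusted p = 1.00). TMEM50B, a membrane protein gene, had 14, 7 and 5 reads in control, 17, 15 and 12 in TNF, 1, 0 and 3 in SG, and 16, 15 and 22 in TNFSG. Here too SG was below all other libraries, and the interaction was 1.98 (0.82 to 3.15; limma, adjusted p = 1.00). A gene could be at 2 loci with unlike values. SLC2A6, a sugar transporter gene, had 1 member listed at 0 in all 6 untreated libraries, at 14, 6.80 and 7.49 FPKM in TNF and at 21.8, 19.5 and 20.2 in TNFSG. Every TNFSG library was above every TNF library, and the interaction was 1.10 (0.40 to 1.81). The other member of that name was at 28.4, 19.1 and 18.2 FPKM in TNF and 30.2, 25.1 and 24.2 in TNFSG. There the groups overlapped, and the interaction was 0.04 (-0.59 to 0.67). TGIF1, a repressor of TGF-beta signalling, rose from a mean of 21.4 to 34.5 FPKM and from 17.8 to 22.5, with an interaction of -0.35, and ABTB2 from 2.82 to 8.99 and from 2.89 to 11.8, with 0.33.

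At the threshold that defines the members, the loci just inside were ATL2, VLDLR-AS1 and AP000487.5, and those just outside were IGHG1, RAPH1 and CT83, with means of 5.003 to 5.004 and 4.995 to 4.998 FPKM. Their interactions were -0.02, -0.36 and 0.10 inside and 0.22, 0.27 and -0.19 outside.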

How the data were processed

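RNA of 12 K562 libraries was sequenced. Bowtie2 2.2.9, TopHat2 2.0.14, Cufflinks and the build hg38 are named per the submitters' processing notes. Which annotation release the authors took is not given in the sources used here. As deposited, the values are FPKM per locus of a merged assembly. Overlapping, antisense or near-identical genes cannot be separated in them: 782 members carry several names, and 1411 share a name with another member. Whole reads were recovered (tolerance 0.03) for 58.3% of 37506 loci, mostly those with few reads, so no count test was run.

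Loci reaching 1 FPKM in 3 or more libraries were tested on log2(FPKM + 1) with limma 3.58.1 in R 4.3.3 (trend, all 12 libraries, 1 mean per group), two-sided, with p-values adjusted after Benjamini-Hochberg over every tested locus and called under 0.05. The fit was tested on simulated data with normal noise on the log2 scale. Those data had no whole-read steps or listed zeros, so they do not test the fit for few-read loci. Fold differences of low loci are understated on this scale. The contrasts were the interaction, both average effects and both TNF responses. Intervals are unadjusted, at 95%.

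The members and lists were chosen with earlier results of these data known. Named genes are the members in the region of MIR146A and PTTG1, interaction calls and the 10 lowest p in each direction, the largest changes in the average effects, the 4 lowest p of each list, and loci beside the threshold. Of those with few reads, some are left unnamed, and 1 list member is not reported here. Loci that carry several names were not matched to the lists. CXCL8, DYNLL2, TMEM50B, NFE2L3, NFKBID, TRAF6, MAP3K14, ABTB2 and TGIF1 were named after their values were seen. Alternatives were pseudocounts of 0.1 and 0.5, other filters and scalings, no trend, robust empirical Bayes, a replicate block and libraries left out. Removing loci under 10 reads and setting zeros to missing were chosen after seeing the data. Sequences are from RefSeq. Python 3.11.15, numpy 2.4.6, pandas 2.3.3 and matplotlib 3.10.9 were used.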

Additional observations from a re-analysis of the deposited data

Results flagged for a closer look

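The test of the difference between both TNF responses passed for 3 members. SDCBPP3 had an interaction of 10.74, with a larger response after the targeted transfection. AC012322.1 had -10.36 and RP4-676J13.2 -5.76, with a more negative response after it. All 3 averaged fewer than 10 reads and were at 0 throughout at least 1 group.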

How the results depend on the processing

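Of the members, 3 passed in the interaction. That count was 7 with a pseudocount of 0.1 and 0 both without loci under 10 reads and with zeros set to missing, where by construction the 3 loci are not tested. It was 0 to 8 over the fits that left out libraries, and 1 without TNF replicate 1, TNFSG replicate 2 or TNFSG replicate 3. Over all loci the count was 3, then 12, 0 and 0 under the same changes, and 0 to 10 with libraries left out. The 1008 calls of the TNF average effect were 165 to 973, and the 304 of the SG average effect 1 to 285. The 369 calls of TNF against control were 48 to 343, and the 376 of TNFSG against SG 60 to 412. The lowest counts came from leaving out the 4 libraries of 1 replicate number, which leaves 2 per group. A filter at a mean of 5 FPKM gave 711 calls in the SG average effect and 582 in TNF against control, no trend gave 107 in the SG average effect, and removing few-read loci gave 627 there. The cause was not tested.

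Pooled over the members tested, deviations from the group means correlated little between same-numbered libraries (-0.05 to 0.15). With the replicate block, the interaction had 2 calls, the TNF average effect 1552, the SG average effect 769, TNF against control 679 and TNFSG against SG 616. Except in the interaction, these counts were above those of the main fit. Members with an unadjusted interaction p under 0.05 in limma went from 334 to 474 with the block. Whether same-numbered libraries form pairs cannot be settled from these values.

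Over the 147 named results, 3501 values under an alternative kept direction and side of the threshold, 170 lost their call and 12 gained one. Another 51 values, all of 18 interactions that did not pass, turned sign. With a pseudocount of 0.1, CXCL10 had 0.23, LTB 0.35 and the more abundant SLC2A6 locus -0.15, and with 0.5 they had 0.00185, 0.0217 and -0.0320. With libraries left out, values ran from -0.0404 to 0.21 for AP000487.5, -0.17 to 0.00562 for ATF4, -0.51 to 0.49 for ATL2, -0.23 to 0.14 for CXCL10, -0.0652 to 0.0923 for ICAM1, -0.13 to 0.0360 for JUND, -0.12 to 0.76 for KIF4B and -0.0457 to 1.03 for KYNU. They ran from -0.55 to 0.33 for LTB, -0.0172 to 0.33 for NFKBIZ, -0.0204 to 0.0622 for PTTG1, -0.19 to 0.0153 for PWWP2A, -0.37 to 0.0133 for RELB, -0.0550 to 0.19 for RNF11, -0.00837 to 0.56 for RRAD, -0.12 to 0.24 for that SLC2A6 locus, -3.11 to 1.13 for UGT2B7 and -0.83 to 0.00467 for VLDLR-AS1. With 3 libraries per group and an unknown total depth, members with wide intervals remain undecided.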
